A study of Mus musculus with 13 samples.

Results

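The genes of the proteasome, taken as every mouse gene whose symbol is Psm followed by one of the letters a to g and a number, were followed through 3 skeletal muscles of mice with muscular dystrophy with myositis (mdm). The annotation (GENCODE mouse release 21, on GRCm38) holds 48 such genes, and 47 of them are among the 17924 genes of the deposited tables. The remaining gene, Psma8, an alpha subunit of the testis, was not analysed here. All 47 passed the filter on low counts and were tested. The rule uses names alone, but the family and the lists of pathway genes used below were chosen with earlier results of these data known.

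RNA-Seq libraries of total RNA were available from the extensor digitorum longus (EDL, 5 libraries), the psoas (5 libraries) and the soleus (3 libraries). All 13 came from mice of the mdm genotype, which carry an insertion in the titin gene that removes part of the protein between its N2A and PEVK segments in every cell, so no group without the mutation stands beside these values and differences are between muscles of one genotype. The mice were 38 to 42 days old for EDL, 29 to 42 days for psoas and 33 to 38 days for soleus, and total counts ran from 9114176 to 48835209 per library. The labels carry a code (T1, T3, T4, T5 or T6) that they do not explain, and whole muscles were used, so that less of a transcript per fibre and fewer cells that make it cannot be told apart.

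The proteasome degrades proteins that have been tagged with ubiquitin. Its barrel-shaped 20S core is built of rings of alpha subunits (Psma genes) that gate the entrance and rings of beta subunits (Psmb genes) that hold the cutting sites, and the 19S cap, made of ATPases (Psmc genes) and non-ATPase subunits (Psmd genes), binds, unfolds and feeds the substrate. Interferon induces the replacement of the cutting subunits by the immunoproteasome forms Psmb8, Psmb9 and Psmb10, while the Psme genes encode alternative activators, Psmf1 an inhibitor, and the Psmg genes together with Psmd5, Psmd9 and Psmd10 chaperones of assembly. In skeletal muscle the ubiquitin-proteasome system is known for its part in the loss of myofibrillar protein during atrophy.

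Promoter windows of 2 genes are shown as examples, Psma3 from the constitutive core and Psmb9 from the inducible subunits described in the paragraphs that follow. Their CCAAT boxes are not typical of these groups. They were read from RefSeq on GRCm38.p6, run 5′ to 3′ on the strand of the gene, and cover 250 bases before to 50 bases after the annotated start. Capitals mark a CCAAT box (CCAAT, searched on both strands, ATTGG being its reverse complement) in both.
Psma3 (chr12:70974373-70974672, + strand): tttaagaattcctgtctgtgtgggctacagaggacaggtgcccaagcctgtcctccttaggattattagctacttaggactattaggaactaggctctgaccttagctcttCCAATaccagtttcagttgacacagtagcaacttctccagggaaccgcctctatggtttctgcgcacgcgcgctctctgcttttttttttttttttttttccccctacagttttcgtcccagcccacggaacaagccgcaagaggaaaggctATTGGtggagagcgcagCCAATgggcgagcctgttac
Psmb9 (chr17:34187281-34187580, - strand): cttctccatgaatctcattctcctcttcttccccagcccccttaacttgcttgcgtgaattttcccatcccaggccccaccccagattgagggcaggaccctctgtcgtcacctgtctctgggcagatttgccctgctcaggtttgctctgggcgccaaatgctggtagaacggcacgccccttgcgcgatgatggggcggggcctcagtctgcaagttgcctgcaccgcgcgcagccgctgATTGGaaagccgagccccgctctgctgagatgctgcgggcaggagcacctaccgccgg

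Of the 47 genes, 40 had at least one such window, 43 windows in all. A CCAAT box, bound by NF-Y, lay in 14 of the 43 windows (32.6%), against 37.4% of the 32851 promoter windows of the table. It lay in 10 of the 27 windows of core subunits (37.0%). Of the 3 windows of Psmb8, Psmb9 and Psmb10, 1 held it, that of Psmb9. The core of the antioxidant response element (TGACNNNGC), which the proteasome regulator Nfe2l1 and its relatives bind, lay in 6 windows (14.0%, against 12.4% of all), those of Psmb5, Psmb6, Psmc6, Psmd12, Psmd9 and Psme4. An interferon-stimulated response element core lay in 5 windows (11.6%, against 3.44%), those of Psmb3, Psmd4, Psmd9, Psme1 and Psmg4, and in 0 of the 3 windows of Psmb8, Psmb9 and Psmb10. The Psmb9 window ends at 34187580, inside the gene span of the GENCODE annotation (to 34187764). Bases upstream of that span were therefore not searched. The Psma3 window held 3 CCAAT boxes, at -139, 14 and 31 from the start, whereas those of Psma4 and Psmd8 held none of the 3 motifs. These matches are letters in a window and were not tied to binding.

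Transcript levels of the 47 genes spanned a wide range. Expressed per kilobase of exon (FPKM, computed from counts scaled by edgeR's TMM factors), the highest mean over the 13 libraries was that of the 19S ATPase Psmc3 (113 ± 24.8 FPKM, SD, n = 13), followed by the 19S lid subunit Psmd8 (108 ± 30.2 FPKM), and these neighbours differed by less than their spread. The constitutive 20S subunits lay between 83.6 ± 21.9 FPKM for Psmb6 and 29.0 ± 8.36 FPKM for Psma2. Psme4, the large activator PA200, reached 36.0 ± 10.8 FPKM and was the highest of the 4 activators, with Psme2 at 18.1 ± 5.50, Psme1 at 9.55 ± 1.97 and Psme3 at 5.15 ± 1.13 FPKM. The immunoproteasome genes were low, with 8.11 ± 2.68 FPKM for Psmb10, 2.46 ± 1.42 for Psmb8 and 1.01 ± 0.601 for Psmb9. Last in the order came the thymus-specific beta subunit Psmb11, at 0.185 ± 0.195 FPKM.

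The levels of the 31 subunits of the constitutive 20S core and the 19S cap (7 alpha, 7 beta, 6 ATPase and 11 non-ATPase genes) moved together from library to library. Their median SD over the 13 libraries was 0.39 on the log2 CPM scale (CPM are counts scaled by the library total and its TMM factor) and fell to 0.17 once the median of the 31 genes in each library had been subtracted. For the other 16 proteasome genes the same step changed the median SD from 0.44 to 0.37, and over all 17069 genes tested it went from 0.53 to 0.65. These subtracted medians contain the 31 genes themselves, and all 31 share the depth and the scaling of their library, so the values are a description. Psmf1 and Psmd9 varied little, and Psmb8, Psmb9 and Psmb11 varied most. Relative to each gene's median over the 13 libraries, all 31 core genes were above it in EDL replicate 5 (median deviation 0.59 on the log2 scale), 28 of 31 in EDL replicate 3 (0.32), 0 in psoas replicate 2 (-0.54) and 1 in psoas replicate 1 (-0.78).

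**Figure D1:**
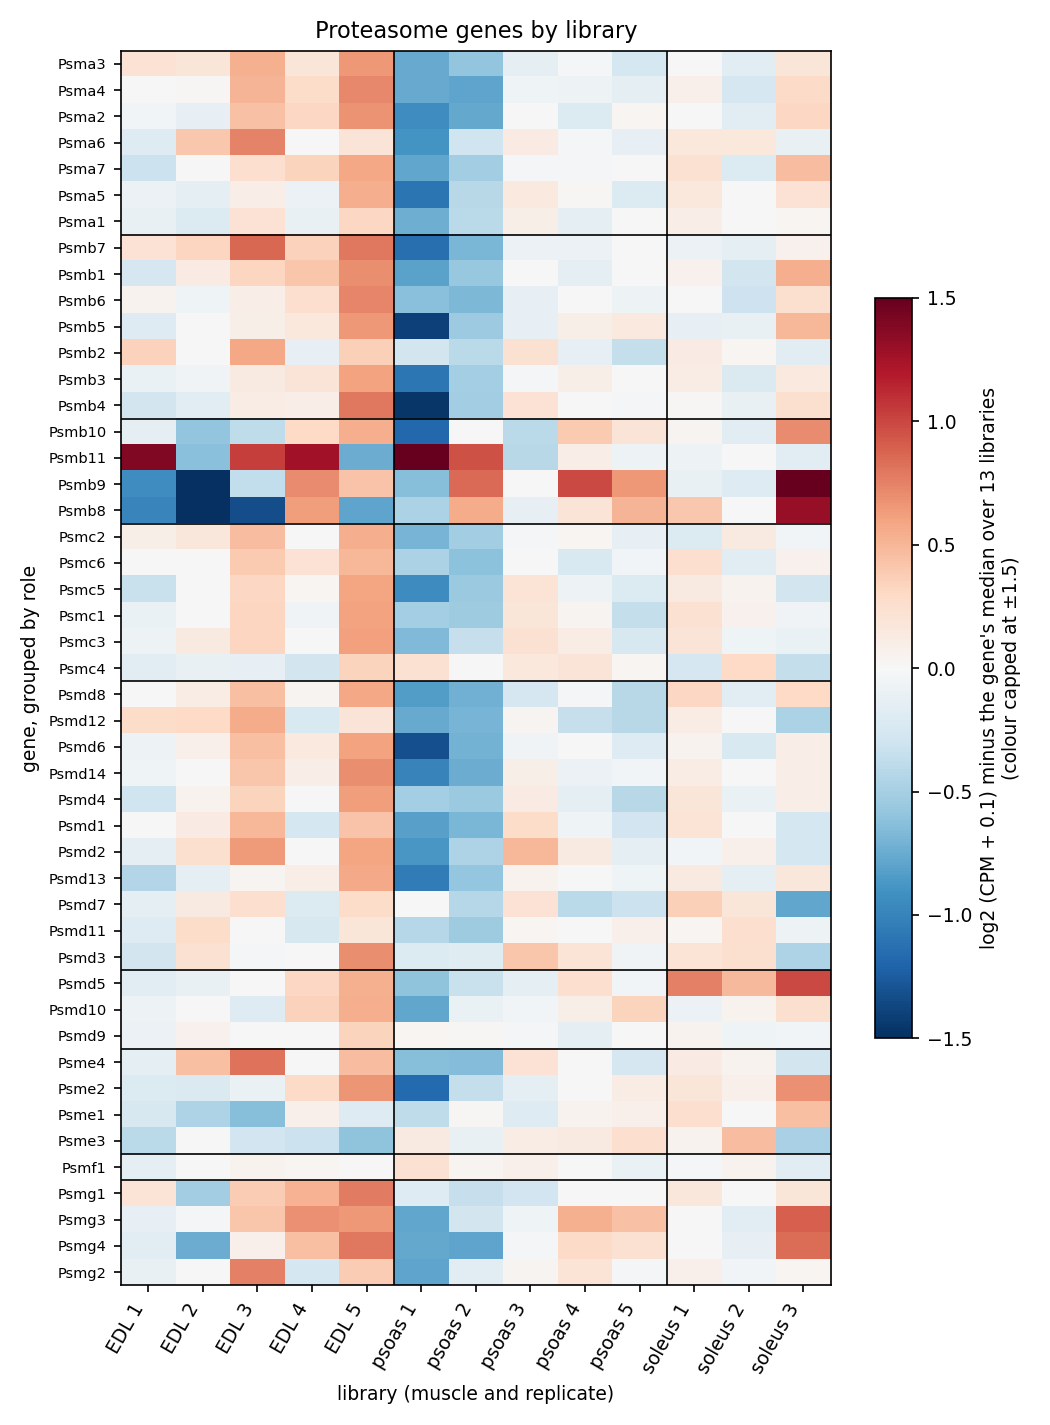
Levels of the 47 proteasome genes (rows, grouped by role with black lines between groups) in the 13 mdm libraries (columns), as log2 of CPM plus 0.1 minus the gene's own median, with colours capped at 1.5. EDL replicates 3 and 5 are red and psoas replicates 1 and 2 blue through most of the alpha, beta and 19S rows, whereas Psmb8, Psmb9, Psmb11, Psme1 and Psme3 follow other patterns.

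Summed over all 47 genes, the level was 4548, 5144, 6346, 5091 and 7110 CPM in EDL replicates 1 to 5. In psoas it was 2892, 3307, 5108, 4722 and 4325 CPM, and in soleus 5240, 4652 and 5079 CPM. The psoas and EDL sums overlapped, since psoas replicates 3 and 4 exceeded EDL replicate 1, and the soleus values lay inside the EDL range. By role, the summed alpha ring came to 1037 ± 189 CPM in EDL (SD, n = 5), 720 ± 169 in psoas (n = 5) and 922 ± 106 in soleus (n = 3). The constitutive beta ring came to 1058 ± 226, 723 ± 193 and 899 ± 146 CPM, and the 19S non-ATPase subunits to 1977 ± 375, 1431 ± 348 and 1756 ± 141 CPM. The 4 immuno- and thymoproteasome genes together reached 22.3 ± 9.33 CPM in EDL, 26.9 ± 7.46 in psoas and 33.8 ± 15.1 in soleus, with overlapping libraries in all 3 muscles.

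**Figure D2:**
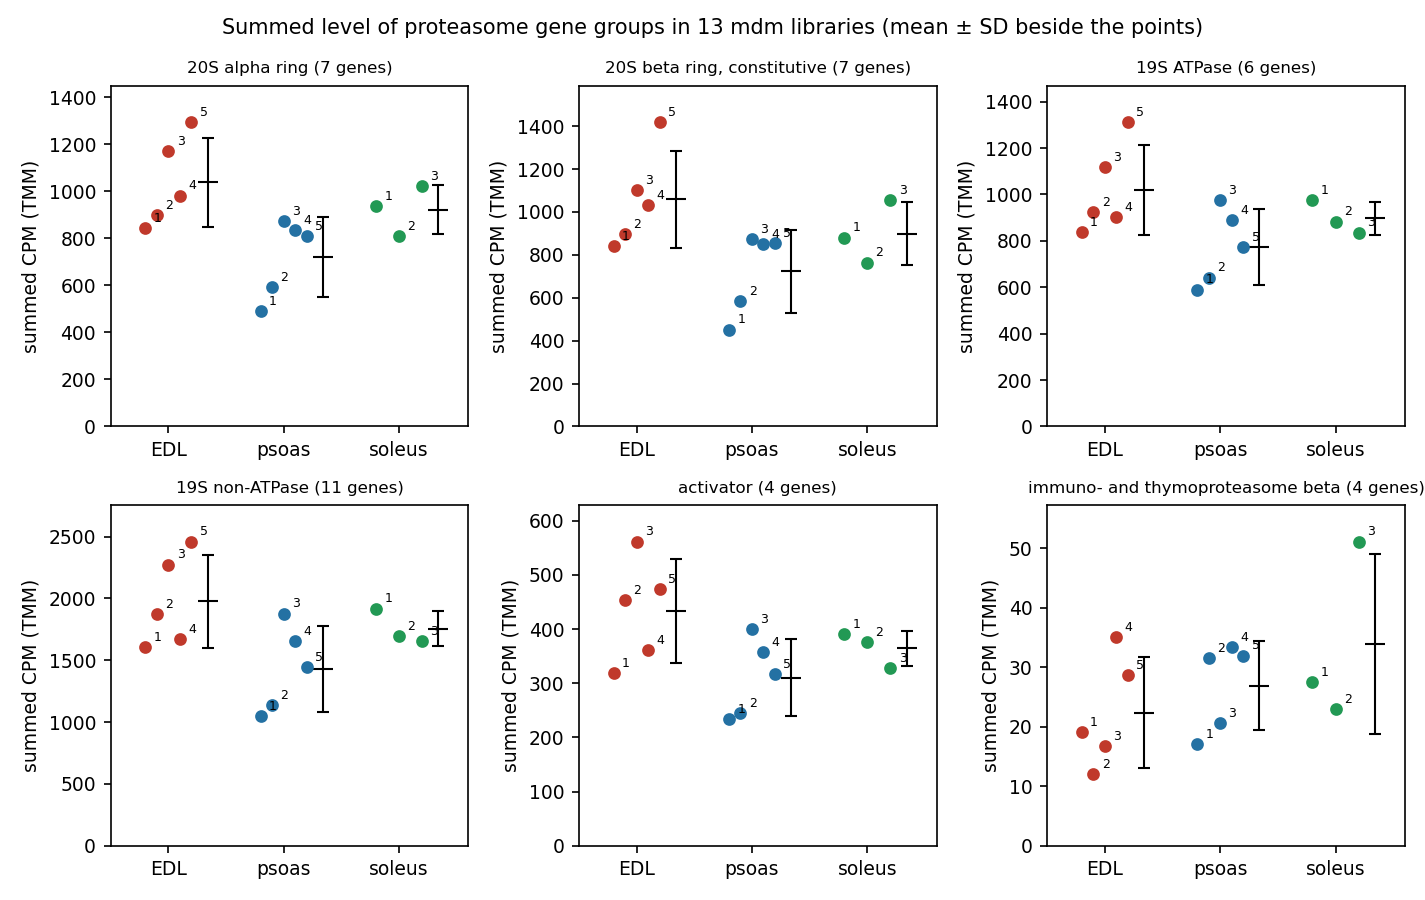
Summed CPM (TMM-scaled) of 6 groups of proteasome genes in each library, with the replicate number beside each point and the mean ± SD of each muscle in black (n = 5, 5 and 3). In the 4 panels of constitutive subunits psoas replicates 1 and 2 are the lowest points and EDL replicate 5 the highest; the inducible beta genes do not show that order, and a scaling to library totals shifts psoas upwards against EDL.

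Comparison of psoas with EDL asked which proteasome genes differ between these muscles, both of which are rich in fast fibres in healthy mice. Psmb7, Psma3, Psmd8, Psmd12 and Psma4 were lower in psoas, by 1.57-fold to 1.83-fold with TMM scaling, and none of these calls held with scaling to library totals. The other 26 of the 31 core subunits did not pass the test, while the inducible Psmb8 and the activator Psme3 had fitted values above 0 that did not pass. At an adjusted p under 0.05 (quasi-likelihood test of edgeR, Benjamini-Hochberg adjustment over 17069 genes), 5 of the 47 genes were lower in psoas and 0 were higher, where 9.06% of all genes tested were called lower and 9.06% higher. In this fit and at this limit the share of members called lower is near that of all genes. At an unadjusted p under 0.05, 17 of the 47 were lower, a larger share than the background of 16.7%, and 1, Psme3, was higher (16.6%). DESeq2's Wald test called 10 of the 47 lower, also a larger share than the 12.4% of all genes in that fit, and 0 higher (11.6%). The core genes moved together from library to library, so these counts are not of independent genes. None passed the limits of the study, an adjusted p under 0.01 with an absolute log2 fold change over 1, which 4.93% of all genes passed. By the RNA integrity numbers that the study lists, no psoas library was above any EDL library in RNA quality. The part of RNA quality in these differences was not tested.

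Most proteasome genes shared a small shift in this contrast. The fitted fold change was below 0 for 40 of 47 genes (48.7% of all genes) and for 30 of the 31 core subunits, and the median was -0.40 for the 47 genes and -0.44 for the core, beside 0.02 for all genes. This direction depends on the scaling: with counts scaled to the library totals, without TMM factors, 34 of 47 were above 0 and the median was 0.10, but the median of all genes then also rose to 0.54, so that the family lay -0.43 from all genes under that scaling and -0.42 with TMM factors. The TMM factors were 0.702 to 0.938 in EDL and 1.003 to 1.36 in psoas, without overlap. Within the codes shared by both muscles, the median difference was -0.49 in T4 (1 library each), -0.16 in T5 (1 each) and -0.36 in T6 (2 each), beside 0.05, 0.06 and 0.02 for all genes.

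**Figure D3:**
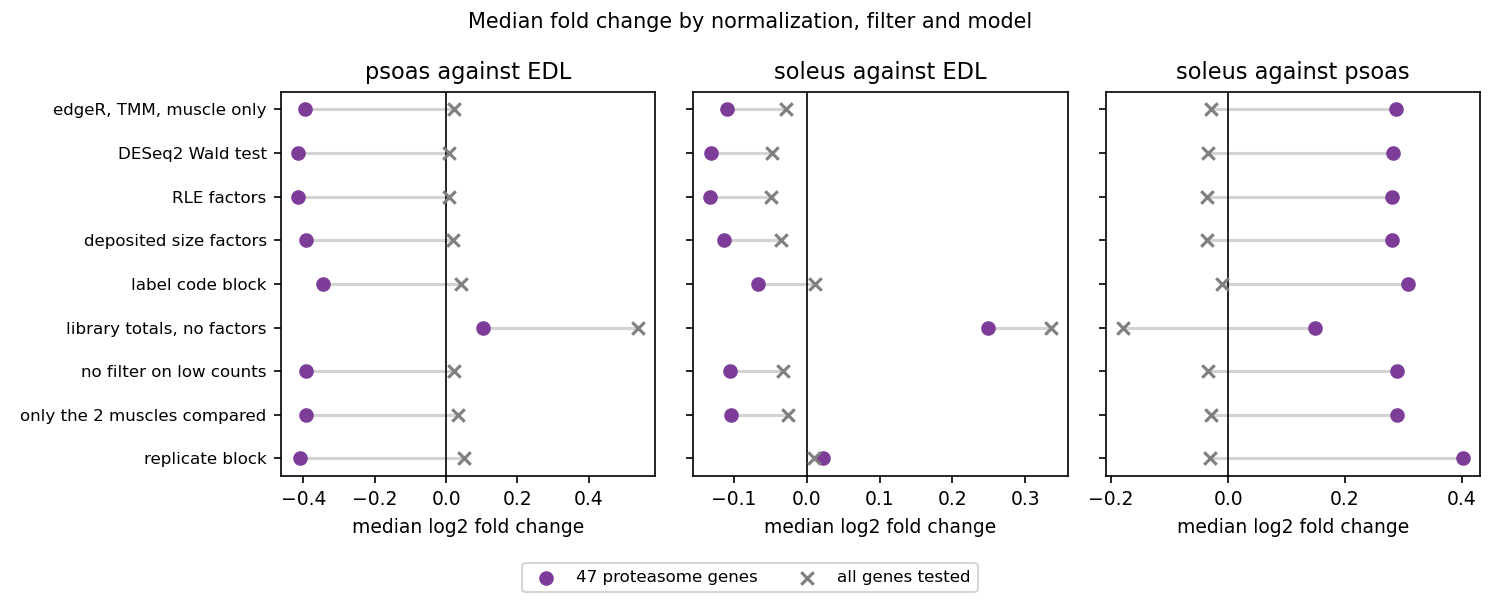
Median log2 fold change of the 47 proteasome genes (purple points) and of all genes tested (grey crosses) in the 3 comparisons, by normalization, filter and model (rows). In psoas against EDL the family lies -0.39 to -0.46 from all genes in the rows shown, although scaling to library totals moves its own median from -0.40 to 0.10.

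Psmb7 (chr2:38588036-38644087, - strand) encodes the beta subunit with trypsin-like activity and showed the largest difference from EDL of the constitutive subunits. Its level was 171, 184, 268, 187 and 254 CPM in EDL replicates 1 to 5 and 67.0, 91.6, 139, 138 and 147 CPM in psoas replicates 1 to 5. All psoas libraries lay below all EDL libraries. The log2 fold change was -0.87 ± 0.23 (SE, edgeR, Benjamini-Hochberg adjusted p = 0.0195). The gene overlaps Nek6 and the pseudogene Gm13586 on the opposite strand, and how reads on overlapping genes were assigned is not given in the sources used here.

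Among the alpha subunits, Psma3 (chr12:70974621-70996347, + strand), whose promoter window with 3 CCAAT boxes is printed above, had 202, 197, 250, 198 and 273 CPM in EDL and 102, 115, 158, 170 and 144 CPM in psoas. The 2 sets did not overlap, and the log2 fold change was -0.70 ± 0.19 (edgeR, Benjamini-Hochberg adjusted p = 0.0209). Psma4 (chr9:54950790-54958030, + strand) had 162, 164, 231, 197 and 267 CPM in EDL and 95.6, 94.0, 155, 154 and 147 CPM in psoas. It too was lower in every psoas library, by -0.66 ± 0.22 (edgeR, adjusted p = 0.0494), a value just inside the threshold. The other 5 alpha genes had fitted values from -0.60 for Psma2 to -0.24 for Psma1 and did not pass.

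The 19S cap contributed 2 calls, both of non-ATPase subunits. Psmd8 (chr7:29174188-29180701, - strand), a lid subunit, had 330, 356, 452, 340 and 491 CPM in EDL and 185, 200, 277, 323 and 247 CPM in psoas, again without overlap (log2 fold change -0.68 ± 0.21, edgeR, adjusted p = 0.0376). Psmd12 (chr11:107479484-107504362, + strand), also of the lid, had 134, 136, 164, 94.3 and 127 CPM in EDL and 65.7, 68.4, 114, 87.0 and 83.0 CPM in psoas. Here EDL replicate 4 lay below psoas replicate 3, and the log2 fold change was -0.65 ± 0.20 (edgeR, adjusted p = 0.0406). None of the 6 ATPases passed, and Psmc4 was the only core gene with a fitted value above 0 (0.18 ± 0.17). In all, 4 of the 47 genes, Psmb7, Psma3, Psma4 and Psmd8, were lower without overlap (6.36% of all genes were) and 0 were higher without overlap (6.46%).

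These 5 calls rested on few libraries. None was left without EDL replicate 3, without EDL replicate 5 or without psoas replicate 2, and 2 (Psma3 and Psmb7) remained without psoas replicate 1, psoas replicate 5 or soleus replicate 1. Psmd8 joined these without psoas replicate 4 or soleus replicate 2. Of the 5 genes, 4 remained without EDL replicate 1, EDL replicate 2, EDL replicate 4 or soleus replicate 3, and all 5 without psoas replicate 3. Without EDL replicate 5 the median of the family was -0.26, and it ran from -0.47 to -0.27 without any other library. Same-numbered EDL and psoas libraries deviated together, and a fit with that number as a block called 10 genes lower and 0 higher, the 5 above with Psma2, Psmb1, Psmc6, Psmd6 and Psmd14. In that fit 12.4% of all genes were called lower and 13.8% higher. The labels give the replicate 1 libraries different ages (38 days in EDL, 29 in psoas) and codes, so they came from different mice, and with the block in replicates 2 to 5 alone 3 genes were lower (Psma2, Psma4 and Psmb7; 9.99% of all genes) and 0 higher (11.3%).

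**Figure D4:**
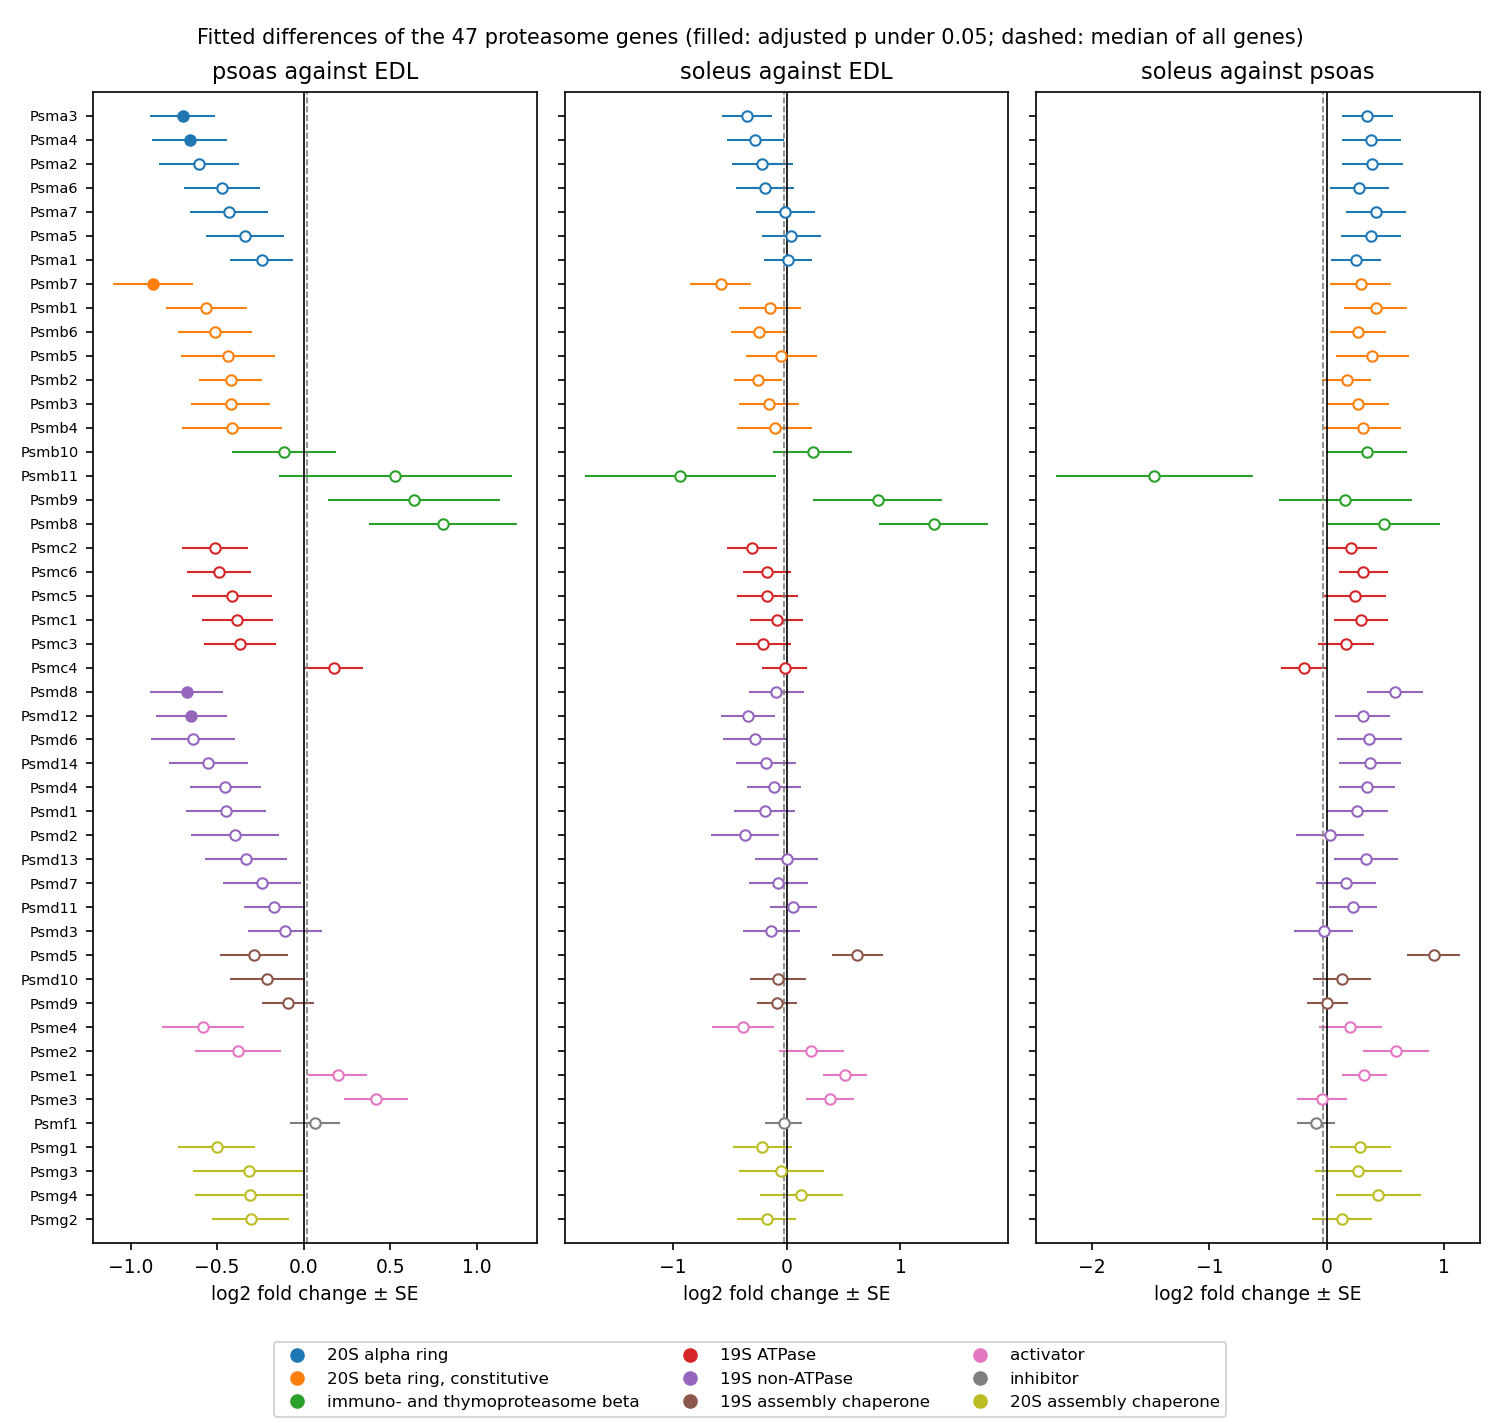
Fitted log2 fold change ± SE of the 47 proteasome genes in the 3 comparisons (panels; TMM scaling, edgeR), coloured by role, with filled points for an adjusted p under 0.05 and a dashed line at the median of all genes. The 5 filled points are Psma3, Psma4, Psmb7, Psmd8 and Psmd12 in psoas against EDL, where 40 of 47 points lie left of 0 with TMM scaling and 13 with scaling to library totals.

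The constitutive cutting subunits were set against their interferon-inducible replacements, which exchange in the pairs Psmb5 and Psmb8, Psmb6 and Psmb9, and Psmb7 and Psmb10. Psmb8 (chr17:34197721-34201454, + strand) had 3.90, 1.91, 3.07, 12.2 and 4.51 CPM in EDL, 5.599, 11.6, 7.18, 9.01 and 11.2 CPM in psoas and 10.4, 7.85 and 19.6 CPM in soleus. EDL replicate 4 stood apart within its muscle and was above every psoas library, whereas the other 4 EDL libraries lay below all psoas and soleus libraries. The log2 fold change was 0.80 ± 0.43 for psoas (edgeR, adjusted p = 0.204) and 1.29 ± 0.48 for soleus (edgeR, adjusted p = 0.189) against EDL. Dropping EDL replicate 4 gave 1.42 (edgeR, adjusted p = 0.0146) and 1.91 (edgeR, adjusted p = 0.0134). These p-values rest on the removal of the library that stood apart. When the 13 libraries were dropped in turn, Psmb8 passed in no other refit. Its value against EDL ran from 0.59 to 1.42 for psoas (edgeR, adjusted p up to 0.355). For soleus it ran from 0.85 to 1.91 (edgeR, adjusted p up to 0.485).

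Psmb9 (chr17:34181987-34187764, - strand) had 1.48, 0.877, 2.24, 4.83 and 3.96 CPM in EDL, 1.83, 5.34, 2.92, 5.91 and 4.65 CPM in psoas and 2.69, 2.55 and 8.88 CPM in soleus. The muscles overlapped, and the fitted 0.64 ± 0.50 for psoas (edgeR, adjusted p = 0.397) and 0.80 ± 0.57 for soleus (edgeR, adjusted p = 0.567) against EDL did not pass. Psmb9 and Tap1 overlap on opposite strands, so reads there may have been split between them. Psmb10 had 12.3, 8.96, 10.4, 16.8 and 19.9 CPM in EDL, 5.95, 13.6, 10.2, 17.9 and 15.6 CPM in psoas and 14.0, 12.0 and 22.2 CPM in soleus, with -0.11 ± 0.30 for psoas and 0.23 ± 0.35 for soleus. The third gene of the pairs was therefore within the spread of the libraries.

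Among the constitutive partners, Psmb5, the chymotrypsin-like subunit, had 54.6, 62.5, 66.2, 69.8 and 97.9 CPM in EDL and 23.6, 42.9, 57.2, 66.3 and 68.9 CPM in psoas (-0.44 ± 0.27, edgeR, adjusted p = 0.274). Psmb6, the caspase-like subunit, had 161, 149, 167, 185 and 260 CPM in EDL and 101, 97.8, 143, 157 and 148 CPM in psoas (-0.51 ± 0.21, edgeR, adjusted p = 0.105). Per kilobase of exon, the constitutive subunit of each pair exceeded the inducible one in every library. Psmb8 made up 1.87, 0.805, 1.22, 4.43 and 1.21% of the Psmb5 and Psmb8 level in EDL, 5.94, 6.71, 3.23, 3.49 and 4.15% in psoas and 4.59, 3.49 and 5.57% in soleus. Psmb9 made up 0.301 to 1.32% of its pair in EDL, 0.922 to 2.71% in psoas and 0.876 to 2.40% in soleus. Psmb10 made up 7.23 to 15.2% in EDL, 12.9 to 22.9% in psoas and 15.3 to 22.4% in soleus. These shares are free of the scaling between libraries, and in all 3 pairs the mean share was higher in psoas and soleus than in EDL. The ranges overlapped, except that the 3 soleus shares of Psmb10 lay just above the highest EDL share. A share also rises where the constitutive partner is lower. Psmb10 averaged 13.7 CPM in EDL and 12.6 CPM in psoas, while Psmb7 averaged 213 and 116 CPM.

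**Figure D5:**
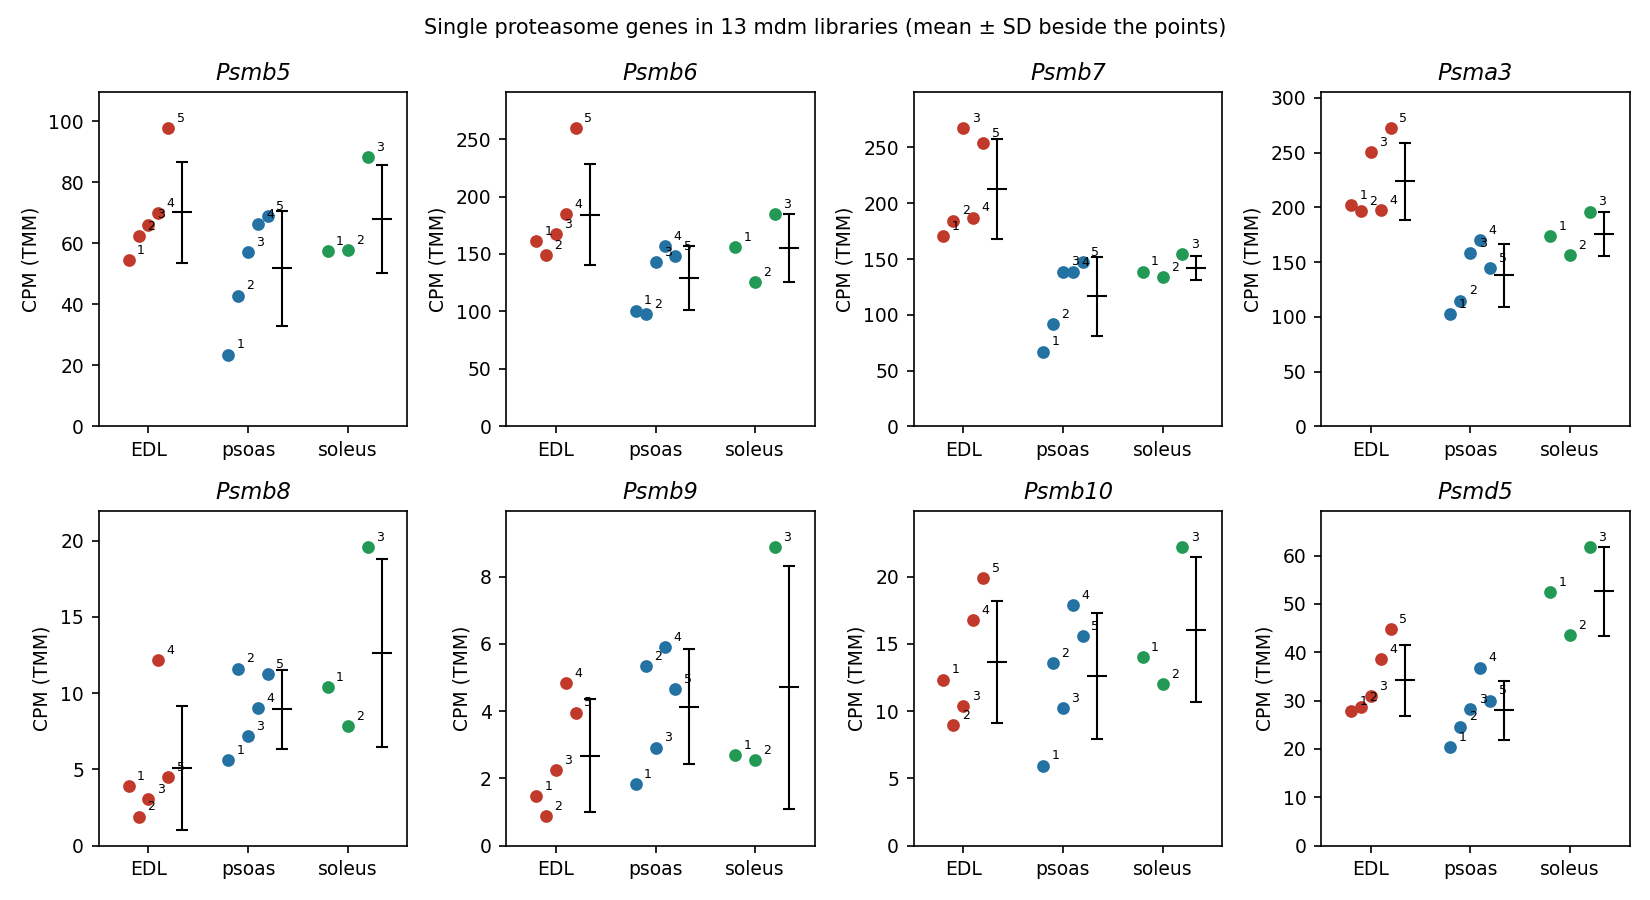
CPM (TMM-scaled) of 8 proteasome genes in each library, with replicate numbers and the mean ± SD of each muscle (n = 5, 5 and 3). Psmb7 and Psma3 show no overlap between EDL and psoas, Psmb8 shows EDL replicate 4 at 12.2 CPM above the other EDL libraries (1.91 to 4.51 CPM), and Psmd5 is above every psoas library in the 3 soleus libraries.

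The activators did not move as a group. Psme4 had 261, 395, 506, 288 and 396 CPM in EDL and 185, 183, 335, 286 and 242 CPM in psoas (-0.58 ± 0.23, edgeR, adjusted p = 0.0974). Psme3, which encodes the nuclear activator PA28 gamma, had 11.9, 15.7, 12.9, 12.6 and 10.3 CPM in EDL and 17.2, 14.5, 17.0, 17.3 and 18.8 CPM in psoas. Only psoas replicate 2 lay below the highest EDL library, and the log2 fold change was 0.42 ± 0.18 (edgeR, adjusted p = 0.127). The interferon-inducible PA28 genes were at 0.20 ± 0.17 for Psme1 (edgeR, adjusted p = 0.452) and -0.38 ± 0.25 for Psme2 (edgeR, adjusted p = 0.309). Psmf1, the inhibitor, stayed between 8.94 and 10.3 CPM in EDL and between 9.20 and 11.6 CPM in psoas (0.07 ± 0.14, edgeR, adjusted p = 0.783), and Psmb11 reached at most 1.38 CPM in EDL and 3.71 CPM in psoas (0.53 ± 0.67, edgeR, adjusted p = 0.623). With scaling to library totals, 30.1% of all genes were called higher in psoas and 3.02% lower (9.06% each with TMM factors), and of the 47 proteasome genes 4 were called higher (Psmc4, Psme1, Psme3 and Psmf1) and 0 lower.

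Other genes of the pathway, from 5 lists with 38 genes tested, gave 10 calls between psoas and EDL, of which 6 were higher in psoas (9.06% of all genes were) and 4 lower (9.06%). The list of interferon and class I presentation genes held 4 of the higher calls among 9 genes. Its fitted values were above 0 for all 9, where 8750 of all 17069 genes were. The same held in soleus against EDL, so the pattern was not particular to psoas. Tap1, a chain of the peptide transporter that carries proteasome products into the endoplasmic reticulum, had 2.97 to 4.36 CPM in EDL and 5.74 to 11.6 CPM in psoas (1.05 ± 0.23, edgeR, adjusted p = 0.00909), and its partner Tap2 had 3.56 to 5.09 CPM in EDL and 7.38 to 9.61 CPM in psoas (1.02 ± 0.19, edgeR, adjusted p = 0.00412). Neither overlapped between these muscles. Ubqln2, a shuttle of ubiquitylated proteins, had 3.21 to 6.40 CPM in EDL and 8.48 to 11.8 CPM in psoas (1.14 ± 0.21, edgeR, adjusted p = 0.00408). On the other side, Uchl5, a proteasome-bound deubiquitylase, had 30.6 to 43.6 CPM in EDL and 19.01 to 27.3 CPM in psoas (-0.73 ± 0.16, edgeR, adjusted p = 0.00771). Usp14, also a proteasome-bound deubiquitylase, was called higher, with 11.5 to 23.0 CPM in EDL and 24.3 to 32.2 CPM in psoas (0.80 ± 0.20, edgeR, adjusted p = 0.0169). Nfyb, a subunit of the CCAAT-binding factor NF-Y, had 24.99 to 35.6 CPM in EDL and 15.4 to 17.8 CPM in psoas (-0.79 ± 0.14, edgeR, adjusted p = 0.00361). The other NF-Y subunits were not called and differed in direction, with Nfya at 0.81 ± 0.36 and Nfyc at -0.35 ± 0.15. Nfe2l1, the transcription factor that raises subunit genes when the proteasome is inhibited, was at -0.45 ± 0.26 (edgeR, adjusted p = 0.237) and the 20S maturation factor Pomp at -0.59 ± 0.20 (edgeR, adjusted p = 0.0549; 0.0278 with the replicate block and 0.0381 without psoas replicate 3).

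Some fibre and cell type markers also differed between psoas and EDL. Summed fast-fibre markers ran from 29036 to 79242 CPM in EDL and from 4345 to 11058 CPM in psoas, with 5 of 5 called lower. Slow-fibre markers ran from 353 to 2353 CPM in EDL and from 365 to 2377 CPM in psoas, with 0 of 5 called. Markers of regenerating fibres ran from 1985 to 3849 CPM in EDL and 3753 to 8322 CPM in psoas, with 3 of 5 called higher, and 3 of 6 general myofibre markers were called lower in psoas. The 3 Schwann cell markers summed to 26.1 to 72.5 CPM in EDL and 127 to 1080 CPM in psoas, and the 3 mesothelial markers to 1.505 to 5.53 CPM and 9.88 to 48.8 CPM, with up to 2 of them at 0 in an EDL library. Leukocyte markers, 6 of a list of 10 being measured, summed to 54.6 to 212 CPM in EDL and 69.5 to 325 CPM in psoas, with 0 of 6 called by edgeR. The part of these markers in the proteasome differences was not tested.

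Soleus, the slow muscle, was then compared with EDL. No proteasome gene was called (0 higher, 0 lower, edgeR; background 1.76% higher and 1.66% lower; 0 past the limits of the study, which 0.978% of all genes passed), and DESeq2 called 0 higher (2.99% of all genes) and 0 lower (3.59%). At an unadjusted p under 0.05, 1 gene was lower (Psmb7; 7.18% of all genes were) and 3 were higher (Psmb8, Psmd5 and Psme1; 7.96%). Fitted values were below 0 for 36 of 47 genes (52.6% of all genes) with TMM factors and for 2 with scaling to library totals. The median was -0.11 beside -0.03 for all genes, and it turned to 0.25 beside 0.33 with scaling to library totals. It was -0.02 without EDL replicate 5, -0.21 without EDL replicate 1, -0.17 without soleus replicate 1 and -0.16 without soleus replicate 3. Psmb7 had 139, 134 and 154 CPM in soleus, below every EDL library (-0.58 ± 0.27, edgeR, adjusted p = 0.326), and Psme1 had 26.3, 22.0 and 30.1 CPM beside 14.1 to 23.2 CPM in EDL (0.51 ± 0.19, edgeR, adjusted p = 0.193). Of the other named genes, Psme3 was at 0.38 ± 0.21, Psme2 at 0.21 ± 0.29, Psme4 at -0.38 ± 0.27, Psmb6 at -0.25 ± 0.25, Psmb5 at -0.05 ± 0.31, Psmf1 at -0.03 ± 0.16 and Psmb11 at -0.94 ± 0.84, none of which passed. Only Psma3 and Psmb7 were lower without overlap (5.5% of all genes were) and 0 were higher without overlap (5.46%), and the EDL libraries are those of the comparison with psoas.

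In the pathway lists 2 of 38 genes were called in soleus against EDL, 1 higher (1.76% of all genes were) and 1 lower (1.66%). H2-K1, a class I heavy chain, had 24.9 to 54.0 CPM in EDL and 117 to 133 CPM in soleus (1.57 ± 0.33, edgeR, adjusted p = 0.0171), and 45.2 to 146 CPM in psoas. All 9 genes of its list, interferon and class I presentation, had fitted values above 0 in soleus against EDL (8086 of all 17069 genes). Of these 9, 6 were higher in soleus than in EDL without overlap (5.46% of all genes), and 2 in psoas (6.46%). Nfyb had 15.5 to 17.5 CPM in soleus (-0.81 ± 0.17 against EDL, edgeR, adjusted p = 0.018). The call of H2-K1 was lost without soleus replicate 1 (edgeR, adjusted p = 0.0708) or 2 (0.0651), and that of Nfyb without soleus replicate 1 (0.0692), 2 (0.0970) or 3 (0.0601) and with the replicate block (0.116). Nfe2l1 was at -0.19 ± 0.30 and Pomp at -0.10 ± 0.23, both within the spread of the libraries. Slow-fibre markers summed to 14383 to 18326 CPM in soleus and 353 to 2353 CPM in EDL, with 4 of 5 called higher. Fast-fibre markers summed to 2172 to 3538 CPM in soleus, with 5 of 5 called lower than in EDL. The part of these markers in the values was not tested.

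Against psoas, soleus had fitted values above 0 for 42 of the 47 genes (47.4% of all genes) and a median of 0.29 beside -0.03 for all genes, a direction that held with scaling to library totals (0.15 beside -0.18). Again no gene was called (0 higher and 0 lower by edgeR, beside 0.434% and 0.199% of all genes, and 0 past the limits of the study beside 0.0762%). At an unadjusted p under 0.05, 2 genes were higher in soleus, Psmd5 and Psmd8 (6.19% of all genes were), and 0 lower (6.48%), and DESeq2 called 1 higher, Psmd5 (1.3% of all genes), and 0 lower (1.29%). Without psoas replicate 1 the median fell to 0.17. Psmd8 had 408, 295 and 404 CPM in soleus (0.58 ± 0.24, edgeR, adjusted p = 0.330), of which replicate 2 lay inside the psoas range. Within the codes, the median of the 47 genes was 0.49 in T4 (2 soleus libraries, 1 psoas library) and 0.17 in T6 (1 and 2), beside 0.01 and -0.001 for all genes.

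Psmd5 (chr2:34849734-34874968, - strand), a chaperone of the 19S base and named here after its values were seen, had 27.8, 28.7, 31.0, 38.5 and 44.8 CPM in EDL, 20.3, 24.6, 28.2, 36.8 and 30.0 CPM in psoas and 52.5, 43.5 and 61.8 CPM in soleus. Every soleus library was above every psoas library, and soleus replicate 2 alone lay below the highest EDL library. The log2 fold change was 0.91 ± 0.22 against psoas (edgeR, adjusted p = 0.0960) and 0.62 ± 0.22 against EDL (edgeR, adjusted p = 0.171). Psmd5 and Psmg1 were the genes of the family that were higher in soleus than in psoas without overlap, where 5.24% of all genes were, and 0 were lower without overlap (4.99%). For the other named genes the soleus to psoas difference was 0.59 ± 0.28 for Psme2, 0.32 ± 0.19 for Psme1, 0.20 ± 0.27 for Psme4, -0.04 ± 0.21 for Psme3, -0.09 ± 0.16 for Psmf1 and -1.47 ± 0.84 for Psmb11, and for the exchange pairs 0.39 ± 0.31 (Psmb5), 0.49 ± 0.48 (Psmb8), 0.27 ± 0.24 (Psmb6), 0.16 ± 0.56 (Psmb9), 0.29 ± 0.26 (Psmb7) and 0.34 ± 0.34 (Psmb10). Nfe2l1 was at 0.27 ± 0.30 and Pomp at 0.49 ± 0.23, without a call.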

How the data were processed

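The authors trimmed libraries of low base quality with Trimmomatic 0.32, aligned reads to GRCm38.p4 with TopHat2 2.1.1 and counted them per gene with GenomicAlignments. The deposited counts are whole numbers, and the deposited normalized signal is the count divided by a size factor per library (0.5023 to 2.417), which was checked (largest deviation 5.2e-15). The library kit keeps strand, and the strand and overlap settings of the counting are not given in the sources used here. Low genes carry the most counting error, and reads carry no molecular identifiers. The study calls the libraries of a muscle replicates but took its muscles from fewer mice than libraries. Some muscles therefore share a mouse, and the labels do not say which. P-values measure the spread between these libraries. No 2 libraries of a muscle agreed within sampling noise (lowest chi-square per degree of freedom 61.02 over 23 pairs).

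A filter kept 17069 genes that reached a normalized count of 10 in 3 or more libraries, and they were fitted in all 13 libraries with edgeR 4.0.16 (R 4.3.3, quasi-likelihood, TMM, muscle as the only factor), with Benjamini-Hochberg adjustment. SE was taken as the absolute log2 fold change over the root of the F statistic. The study also fitted a sequencing run, which the labels do not name. CPM use TMM-scaled totals, FPKM divide them by the union of exons, and log2 CPM have a prior count of 2. Gene symbols matched 17833 of 17924 identifiers. Same-numbered EDL and psoas libraries were paired only in the replicate blocks, and the main fit has no pairing. Their deviations from the muscle means correlated by 0.407, 0.370, 0.316, 0.289 and 0.371. Replicate 1 differs in age and code between these muscles, and the other 4 pairs share both. Correlations between differently numbered libraries were not computed, so these values cannot show that a pair shares a mouse. Alternatives were RLE or the deposited factors, DESeq2 1.42.0, no filter, the muscles compared alone, blocks for label code or replicate and leaving out each library. Scaling to library totals and the replicate block without replicate 1 were added after seeing the data. Code was tested on simulated data. A further promoter motif was searched and is not reported here.

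Genes were named by rule: the exchange pairs, activators, inhibitor and tissue-restricted subunits, called members, up to 5 pathway genes with the lowest p per comparison, and Nfe2l1 and Pomp. Usp14, Nfya and Nfyc were named outside the rule, beside Uchl5 and Nfyb. The members and lists were chosen with earlier results of these data known. Beside the markers described, fibroblast, endothelial and adipocyte lists were summed, and their ranges were 1862 to 6655, 64.2 to 206 and 66.5 to 829 CPM over the 13 libraries.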

Additional observations from a re-analysis of the deposited data

Results flagged for a closer look

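In 94 groups of 5 libraries (47 genes in EDL and in psoas), 4 held a library whose gap to its nearest neighbour exceeded 0.71 of the range of the group, where chance gives about 1 in 20. The 20S beta subunit Psmb4 was at 259 CPM in EDL replicate 5, with the next library at 162 CPM. The 19S ATPase Psmc4 was at 43.9 CPM in the same library, with the next at 32.1 CPM, and this library had all 31 core subunits above their medians. Psmb8 was at 12.2 CPM in EDL replicate 4, with the next EDL library at 4.51 CPM. Psmb11 was at 3.71 CPM in psoas replicate 1, with the next psoas library at 0.999 CPM, and that library came from the youngest mouse (29 days).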

How the results depend on the processing

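Beside the 5 genes lower in psoas than in EDL, DESeq2 called 10 (12.4% of all genes called lower in that fit), the label code block 8 (12.9%), the replicate block 10 (12.4%), that block in replicates 2 to 5 alone 3 (9.99%), the 2 muscles alone 2 (7.42%), no filter 4 (8.31%), and scaling to library totals 0 (3.02%, with 4 higher beside 30.1%), against 9.06% beside the 5; leaving out single libraries gave 0 to 5 lower and 0 to 1 higher, the higher one being Psmb8 without EDL replicate 4. The family median with library totals turned from -0.40 to 0.10 (psoas against EDL) and from -0.11 to 0.25 (soleus against EDL), and the latter was 0.022 with the replicate block. In soleus against EDL the code block called 1 higher (Psmd5), the replicate block 1 (Psmb8), library totals 3 (Psmd5, Psme1 and Psme3), and leaving out single libraries 0 to 1 (Psmb8, without EDL replicate 4). In soleus against psoas DESeq2 and the code block each called 1 higher (Psmd5). The same-numbered soleus libraries differ in age from those of the other muscles, with correlations from -0.302 to 0.421. The replicate block changed no other call of a member beyond those given here and in the report. Of the pathway genes named by rule it added Pomp in psoas against EDL and ended the Nfyb call in soleus against EDL.

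Fitted values that changed sign were not called on either side. With library totals these were, in psoas against EDL, Nfe2l1 0.061, Psmb10 0.37, Psmb5 0.040 and Psme2 0.10, and in soleus against EDL Nfe2l1 0.19, Pomp 0.26, Psmb5 0.31, Psmb6 0.11, Psme4 0.0072 and Psmf1 0.34. With the label code block they were Psmb10 0.083, Psmb11 -0.24 and Psmf1 -0.018 in psoas against EDL, Psmb5 0.014 in soleus against EDL and Psmb9 -0.054 in soleus against psoas. With the replicate block in replicates 2 to 5 alone they were Psmb10 0.082, Psmb11 -0.080 and Psmf1 -0.016 in psoas against EDL. With the replicate block they were Pomp 0.025, Psmb5 0.13 and Psmf1 0.0014 in soleus against EDL. Leaving out single libraries gave ranges of -0.26 to 0.068 for Psmb10 and -0.53 to 0.83 for Psmb11 in psoas against EDL, of -0.44 to 0.037 for Nfe2l1, -0.067 to 0.41 for Psmb10, -0.28 to 0.10 for Psmb5, -0.0097 to 1.14 for Psmb9 and -0.074 to 0.033 for Psmf1 in soleus against EDL, and of -0.65 to 0.46 for Psmb9 and -0.29 to 0.16 for Psme3 in soleus against psoas. Of the called pathway genes named by rule, Tap1, Tap2 and Ubqln2 stayed called under all 22 alternatives, while Nfyb and Uchl5 lost the call in psoas against EDL with library totals only. In soleus against EDL, Nfyb also lost it with library totals and with the 2 muscles alone, and Pomp gained one in psoas against EDL with DESeq2, RLE factors and the label code block. The cause of these changes was not tested. Psmb9, Psmb11 and Psmg3 were the lowest genes per length, and counting error limits them most.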
